A study of Mus musculus with 11 samples.

Results

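The 10 genes described here encode the MHC class II antigen presentation machinery of the mouse: the classical chains H2-Aa, H2-Ab1 and H2-Eb1, the invariant chain Cd74, the peptide exchange factor H2-DM (H2-DMa, H2-DMb1 and H2-DMb2), its modulator H2-O (H2-Oa and H2-Ob) and the transactivator Ciita. They were chosen by gene symbol from the 45777 genes of the deposited expression table, and all 10 were found once. The choice was made with earlier results of these libraries known, so the changes and adjusted p-values below describe these libraries and are not independent evidence.

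RNA sequencing was performed on skin and small intestine (SI) of BALB/c mice aged 8 to 10 weeks. Cream was applied to shaved skin at 62.5 mg per day, either Aldara with 5% imiquimod (IMQ), a TLR7 ligand that causes psoriasis-like dermatitis, or Vaseline as vehicle, for 5 to 8 days according to the sample labels. Skin gave 3 control libraries (replicates 1 to 3) and 3 from IMQ-treated mice (4 to 6), and SI gave 3 control libraries (7 to 9) and 2 from IMQ-treated mice (10 and 11), with 44995414 to 58526384 counts each. Neither the day at which each mouse was taken nor which tissues came from one mouse is given, and whole tissue was used, so a difference in the number of cells of a type and a difference in RNA per cell cannot be told apart.

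Class II molecules are carried mainly by dendritic cells, macrophages and B cells, and also by Langerhans cells of the epidermis and by enterocytes under some conditions. The alpha and beta chains assemble on the invariant chain in the endoplasmic reticulum and move to endosomes, where proteases degrade the invariant chain, H2-DM exchanges the remaining fragment for a peptide and H2-O restrains H2-DM. Transcription of the classical, invariant chain and H2-DM genes is known to depend on X and Y boxes in their promoters, which are bound by RFX, CREB and NF-Y, and on CIITA, which docks on those factors.

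Of the 10 genes, 8 lie in one stretch of chromosome 17, from 34092379 to 34316674 of GRCm38 (mm10). Their promoters are shown because class II genes are known for a shared upstream control element, the X and Y boxes. RefSeq promoters (GRCm38.p6, 250 bases before the start of the transcript and 50 after it) were matched for 7 of the 10 genes. H2-Ab1, Cd74 and Ciita had no match. Their letters are those of the C57BL/6 reference, whereas the libraries came from BALB/c mice. The stretch from base 140 to base 31 before the start is printed for 6 genes, 5′ to 3′ along the gene, with the core of the X box (GCAAC) and of the Y box (ATTGG) in capitals. H2-DMa had 2 promoters, which are not printed, and neither core stands in that stretch of them along the gene.
H2-Aa, chr17:34287854-34287963, minus strand: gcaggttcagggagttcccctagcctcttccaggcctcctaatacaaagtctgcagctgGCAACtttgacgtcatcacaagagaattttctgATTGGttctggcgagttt
H2-Eb1, chr17:34305727-34305836, plus strand: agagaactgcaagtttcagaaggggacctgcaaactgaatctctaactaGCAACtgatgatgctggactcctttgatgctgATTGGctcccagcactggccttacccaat
H2-Ob, chr17:34238765-34238874, plus strand: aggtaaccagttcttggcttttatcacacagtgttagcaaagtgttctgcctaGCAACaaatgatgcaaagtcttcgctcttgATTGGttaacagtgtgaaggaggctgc
H2-Oa, chr17:34092239-34092348, plus strand: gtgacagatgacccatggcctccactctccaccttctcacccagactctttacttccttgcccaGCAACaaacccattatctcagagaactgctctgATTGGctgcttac
H2-DMb1, chr17:34153051-34153160, plus strand: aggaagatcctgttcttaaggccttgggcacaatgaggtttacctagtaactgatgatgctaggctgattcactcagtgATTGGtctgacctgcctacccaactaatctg
H2-DMb2, chr17:34145109-34145218, plus strand: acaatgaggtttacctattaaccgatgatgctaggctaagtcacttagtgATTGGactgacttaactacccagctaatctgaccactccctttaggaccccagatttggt

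On either strand, GCAAC was present in 5 of the 8 promoters of these 7 genes and in 35.2% of the 32851 promoters of the table. ATTGG was present in 7 of the 8, against 37.4% of all promoters. GCAAC followed by ATTGG after 10 to 40 bases was found for H2-Aa, H2-Eb1, H2-Ob and H2-Oa and in 1.43% of all promoters. The letters between both motifs numbered 28 in H2-Aa, 27 in H2-Eb1, 25 in H2-Ob and 28 in H2-Oa. In H2-DMb1 and H2-DMb2 only ATTGG matched in these windows, preceded in both by ATGATGC, which also stands in H2-Eb1 and H2-Ob and in 2.46% of all promoters. ATGATGC was looked for after the sequences had been read, and a match describes letters, not a bound site. The X and Y letters of H2-Oa and H2-Ob were spaced like those of H2-Aa and H2-Eb1, in a search that allowed only 10 to 40 bases. The spacing in other promoters that passed this search was not examined.

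The labels of the tissues were matched by their markers. Summed FPKM (fragments scaled by transcript length and library size) of 7 keratinocyte genes was 5013 to 13687 in skin and 0.509 to 1.45 in SI, and that of 10 enterocyte genes was 11888 to 26935 in SI. Control replicate 2 of the skin had an enterocyte sum of 345, against 64.3 to 90.0 in the other 5 skin libraries. Epcam alone gave 110.6 FPKM in replicate 2 and 62.2 to 90.0 in the other 5. Fabp2 was at 92.9 FPKM in replicate 2 and 0 to 2.66 in the other 5, and Apoa1 at 53.0 and 0 to 1.65. Control replicate 9 of the SI had the highest counts of several B cell genes, with 359 normalized counts of Ms4a1 (CD20) against 16.6 to 52.7 in the other 4 SI libraries. Cd79a and Cd79b, the signalling chains of the B cell receptor, were highest in control replicate 7 and IMQ replicate 10. Control replicate 2 of the skin and control replicate 9 of the SI were also the highest of their tissue for nearly every class II gene. Values without these 2 libraries are given where they matter.

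Per length, the 10 genes spanned a wide range of levels in vehicle-treated SI. Cd74 was at 1035 ± 276 FPKM (SD, n = 3), followed by H2-Aa at 320 ± 143, H2-Ab1 at 258 ± 87.4 and H2-Eb1 at 170 ± 55.2. The 3 H2-DM genes came next, with H2-DMb1 at 40.8 ± 21.4, H2-DMb2 at 29.5 ± 14.3 and H2-DMa at 29.2 ± 19.9 FPKM. Ciita was at 8.05 ± 2.83, and H2-Ob and H2-Oa were at 0.984 ± 0.562 and 0.657 ± 0.168 FPKM. The ranges of the 3 libraries were separate between Cd74 and H2-Aa, between H2-Eb1 and H2-DMb1 and between Ciita and H2-Ob, and overlapped between all other neighbours in this order. In vehicle-treated skin the order was the same, from Cd74 at 601 ± 171 FPKM to H2-Oa at 1.07 ± 0.294.

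**Figure D1:**
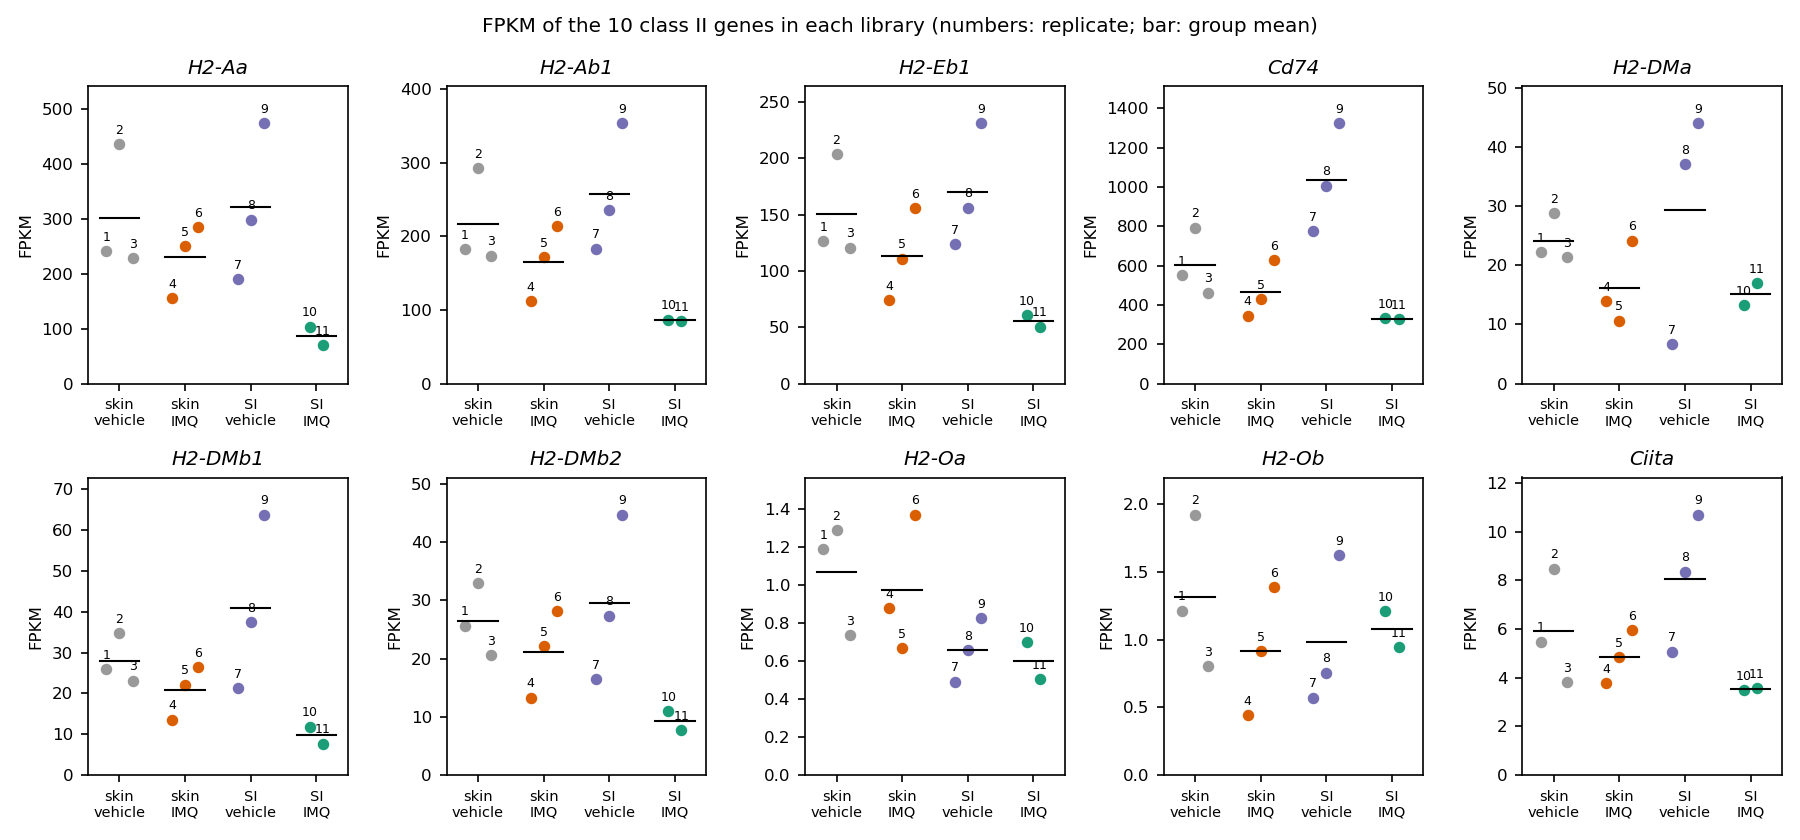
FPKM of each of the 10 genes (vertical axis, linear from 0) in vehicle- and IMQ-treated skin and SI, where each point is a library labelled with its replicate number and the bar is the group mean. For H2-Aa, H2-Ab1, H2-Eb1, Cd74, H2-DMb1, H2-DMb2 and Ciita both IMQ-treated SI libraries lie below all 3 vehicle-treated ones, whereas the groups overlap for H2-DMa, H2-Oa and H2-Ob and for all 10 genes in the skin.

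The first comparison asked how class II genes differed in the SI, a tissue distant from the treated skin. In IMQ-treated mice Cd74, H2-Ab1 and H2-Eb1 were lower, each about 3-fold. In the SI, the quasi-likelihood test of edgeR, at a Benjamini-Hochberg adjusted p under 0.05, called 588 of 19965 genes (2.95%), of which 34 (0.170%) were lower. Among the 10 class II genes 3 were called lower and 0 higher: Cd74, H2-Ab1 and H2-Eb1. The median log2 fold change of the 10 was -1.57, against -0.02 over all genes tested. Of the 34 lower genes, Cd74 had the highest mean count, H2-Ab1 came next and H2-Eb1 was in position 4.

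The alpha chain gene H2-Aa had 12540.5, 18315.5 and 32225 normalized counts in control replicates 7, 8 and 9 and 6685 and 4863 in IMQ replicates 10 and 11. Its partner H2-Ab1, which encodes the beta chain of I-A, had 12866, 15300 and 25483 counts in controls and 5933 and 6254 after IMQ. H2-Eb1, the beta chain of I-E, had 12103, 14203 and 23267 counts in controls and 5808 and 5214 after IMQ. For all 3 chains both IMQ libraries were below the lowest control, and control replicate 9 was the highest.

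H2-Ab1 fell by 1.55 on the log2 scale (SE 0.30, 2.93-fold lower, 95% interval -2.26 to -0.85, edgeR adjusted p = 0.0425). H2-Eb1 fell by 1.58 (SE 0.29, interval -2.27 to -0.90, edgeR adjusted p = 0.0355). H2-Aa had a larger difference, with a log2 value of -1.86 (SE 0.40), and did not pass the test (edgeR adjusted p = 0.0652). The files list the I-E alpha chain as H2-Ea-ps, since the gene is inactive in the C57BL/6 reference and active in BALB/c mice. H2-Ea-ps had 10062, 12957 and 20770.5 normalized counts in controls and 5670 and 3953 after IMQ (log2 -1.60, SE 0.33, edgeR adjusted p = 0.0565). The same mismatch of strain and reference applied to all libraries. Whether it affected some genes more than others, and so the levels and ratios between genes, was not tested.

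Cd74 encodes the invariant chain, which blocks the peptide groove during assembly and directs the complex to endosomes. The gene lies outside the complex on chromosome 18 (60803849 to 60812652, GRCm38). Its normalized counts were 58012, 69244 and 100647 in control replicates 7, 8 and 9 and 24232 and 25929 in the IMQ libraries. Cd74 fell by 1.60 on the log2 scale (SE 0.29, 3.03-fold lower, interval -2.27 to -0.93, edgeR adjusted p = 0.0308). The ratio of Cd74 to the sum of the 3 classical chains, in FPKM, was 1.25 to 1.56 in controls and 1.33 and 1.60 after IMQ. The ratios of both groups overlapped.

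Within the SI, both IMQ libraries also had lower normalized counts of the H2-DM genes than all controls, with differences that did not pass the test. H2-DMb1 had 1609, 2614 and 4938 normalized counts in controls and 869 and 609 after IMQ. H2-DMb2 had 1364 (replicate 7), 2105 and 3806 counts in controls and 890 and 686 after IMQ. The log2 differences were -2.05 (SE 0.46, edgeR adjusted p = 0.0756) for H2-DMb1 and -1.62 (SE 0.41, edgeR adjusted p = 0.112) for H2-DMb2. Aligned transcripts of both genes were 94.5% identical over 1254 bases, with a longest identical run of 221 bases, so reads may be divided between them in a manner that the sources used here do not give. H2-DMa, the alpha subunit, had 2538, 4045 and 5228 counts in controls and 2026 and 2101 after IMQ (log2 -0.93, SE 0.28, edgeR adjusted p = 0.188). Its FPKM did not follow its counts: control replicate 7 was listed at 6.63 FPKM with 2340 counts, whereas IMQ replicate 10 was listed at 13.2 FPKM with 2232 counts. The separation of the groups in H2-DMa therefore held for counts and not for FPKM.

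Ciita, the transactivator that is induced by interferon gamma and is constitutive in dendritic and B cells, lies on chromosome 16 (10480014 to 10531064). It had 1971, 3205 and 3919 normalized counts in controls and 1512 and 1413 after IMQ. The log2 difference was -1.05 (SE 0.27, edgeR adjusted p = 0.122). In total 8 of the 10 genes had both IMQ libraries below all controls in normalized counts, a separation shown by 13.9% of the 19965 genes tested. The ratio of the 3 classical chains to Ciita in FPKM was 82.5 to 98.9 in controls and 71.9 and 57.6 after IMQ, so it was also lowest in the IMQ libraries.

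H2-O was the exception. H2-Ob, its beta chain, had 90.0, 111 and 262 normalized counts in control replicates 7, 8 and 9 and 186 and 156 after IMQ. H2-Oa had 30.4, 38.3 and 52.6 counts in controls and 42.7 and 33.3 after IMQ. The IMQ libraries lay within the range of the controls for both genes. Counts were low and intervals wide (SE 0.36 for H2-Oa and 0.46 for H2-Ob), so differences of moderate size were not detectable. H2-DMb1, with higher counts, also had an SE of 0.46. The log2 difference was 0.15 for H2-Ob (interval -0.94 to 1.24, edgeR adjusted p = 0.951) and -0.09 for H2-Oa (interval -0.93 to 0.75, edgeR adjusted p = 0.963).

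The proportion of H2-O to H2-DM transcripts was compared within each library. The ratio of H2-Ob to the sum of H2-DMb1 and H2-DMb2, in FPKM, was 0.0151, 0.0117 and 0.0150 in control replicates 7, 8 and 9 and 0.0533 and 0.0612 in IMQ replicates 10 and 11. With the alpha chains included, the ratio of H2-O to H2-DM was 0.0239, 0.0139 and 0.0161 in controls and 0.0531 and 0.0446 after IMQ. For both ratios the IMQ libraries of the SI were above every other library, those of the skin included. Summed over counts instead of FPKM, H2-O to H2-DM was 0.0170 to 0.0225 in controls and 0.0604 and 0.0558 after IMQ. These are ratios of transcripts and were given no test.

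**Figure D2:**
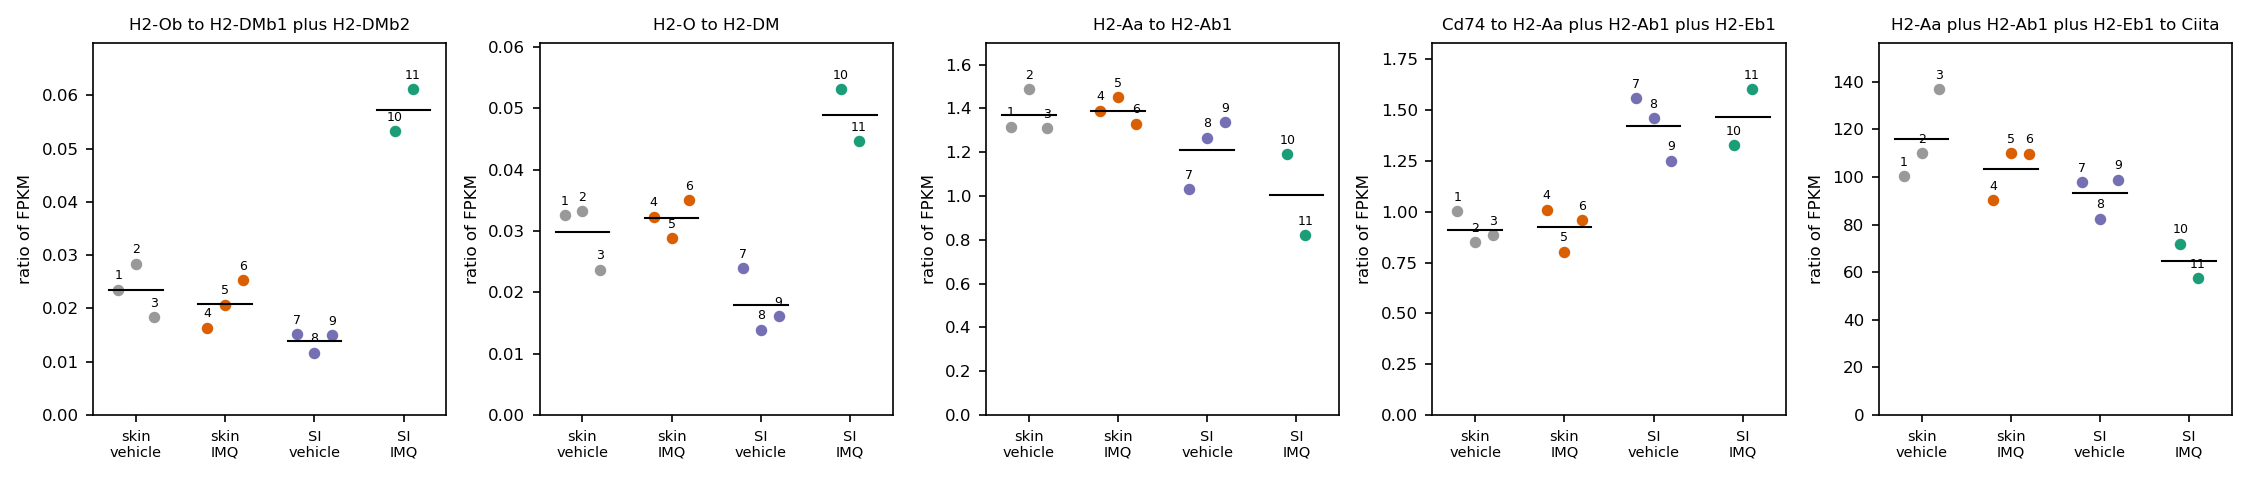
Ratios of FPKM between class II genes (vertical axes, linear from 0) in each library by group, with replicate numbers and bars at the group means. H2-Ob to H2-DMb1 plus H2-DMb2 is 0.0533 and 0.0612 in the IMQ-treated SI and no more than 0.0284 elsewhere, while Cd74 to the classical chains separates the tissues and not the treatments.

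The second comparison addressed the treated skin. Here 1382 of 20512 genes were called (6.74%), 830 higher (4.05%) and 552 lower (2.69%), and of the class II genes 0 were called by edgeR. None of the 10 had an unadjusted p under 0.05, which 23.2% of all genes tested had, and DESeq2 and limma called 0 as well. All 10 log2 values were below 0, with a median of -0.35 against -0.01 over all genes.

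H2-Aa had 14189, 27605 and 13279 normalized counts in control replicates 1, 2 and 3 and 10031, 15493 and 17167 in IMQ replicates 4, 5 and 6. H2-Ab1 had 11391, 19612 and 10724 counts in controls and 7636, 11295 and 13651.5 after IMQ. Cd74 had 37027, 57202 and 30601 counts in controls and 25331, 30262 and 43140 after IMQ. The groups overlapped for each of the 10 genes, with control replicate 2 the highest for all but H2-Oa and IMQ replicate 4 the lowest for most of them.

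The log2 difference in skin was -0.36 for H2-Ab1 (interval -1.07 to 0.36, edgeR adjusted p = 0.532), -0.38 for H2-Eb1 (edgeR adjusted p = 0.534) and -0.34 for Cd74 (interval -1.04 to 0.37, edgeR adjusted p = 0.551). H2-DMb1 had -0.40 and H2-Ob -0.50, and the values of the other 5 genes were between -0.37 and -0.09. Without control replicate 2, the log2 value of H2-Aa was 0.05, of H2-DMa 0.03, of H2-Oa 0.11 and of Ciita 0.06, and H2-DMa was at 0.05 without IMQ replicate 4 and H2-Oa at 0.12 without IMQ replicate 5, so the common direction of the 10 in skin did not hold without single libraries. The ratio of H2-O to H2-DM in FPKM was 0.0237 to 0.0332 in control skin and 0.0289 to 0.0350 after IMQ, which overlapped.

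**Figure D3:**
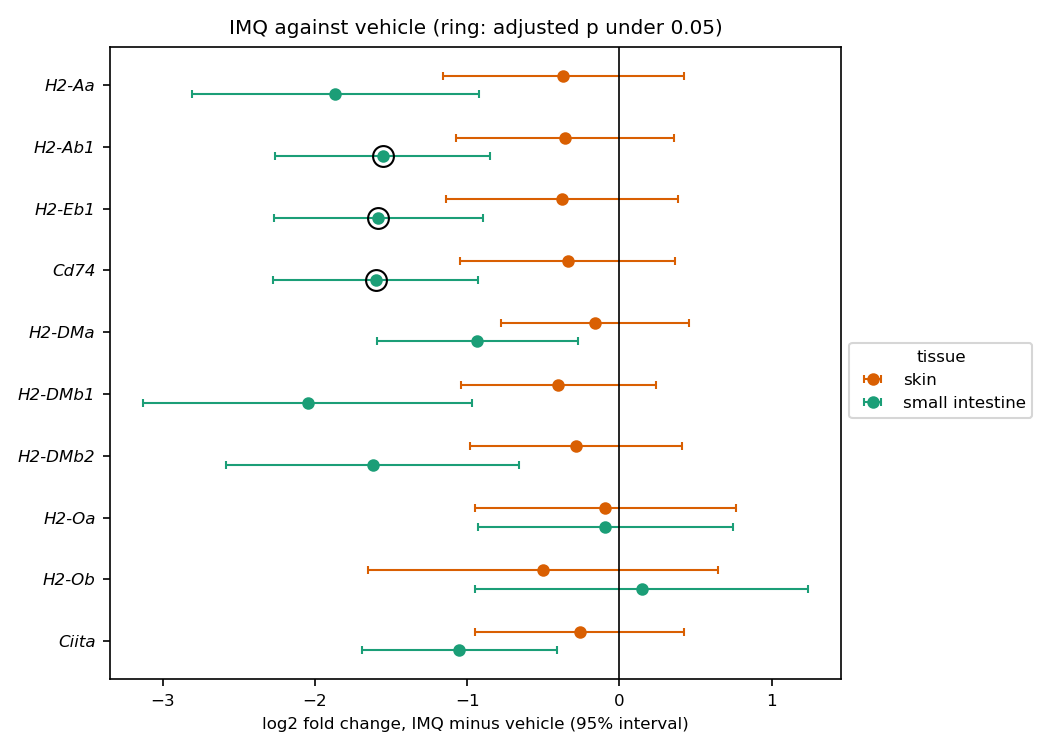
Log2 fold change of IMQ against vehicle (horizontal axis) with its 95% interval for the 10 genes in skin and SI, where rings mark an edgeR adjusted p under 0.05. The 3 ringed genes are H2-Ab1, H2-Eb1 and Cd74 in the SI, and every skin interval includes 0.

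A model of the 11 libraries with an interaction term asked whether the change with IMQ was unequal in the tissues, and it called 462 of 18108 genes (2.55%). None of the 10 class II genes was called by edgeR, and DESeq2 and limma also called 0. At an unadjusted p under 0.05 there were 6, a level passed by 16.9% of all genes tested. The difference of the log2 changes, SI minus skin, was -1.25 for Cd74 (SE 0.45, interval -2.25 to -0.25, edgeR adjusted p = 0.190), -1.18 for H2-Ab1 (edgeR adjusted p = 0.239) and -1.19 for H2-Eb1 (edgeR adjusted p = 0.248). H2-DMb1 had the largest value, -1.64 (SE 0.58, edgeR adjusted p = 0.176). A larger decrease in SI than in skin thus did not pass the test for any of the 10 genes. Without control replicate 2 of the skin, the interaction was called for 1 gene, Cd74 (log2 -1.57).

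Between the vehicle-treated tissues, 10321 genes differed (57.0%), 5111 of them higher in SI (28.2%). Of the 10 class II genes 3 were higher in SI, a share near that of all genes, and 0 lower. Cd74 was 2.29-fold higher (SE 0.30 on the log2 scale, edgeR adjusted p = 0.00570) with no overlap of the groups. H2-DMa was higher by 0.90 (edgeR adjusted p = 0.0194) and H2-DMb1 by 0.99 (edgeR adjusted p = 0.0432), both with overlapping counts. The call of H2-DMb1 held in 4 of 11 fits that left out a library and in 2 of 8 other models or filters, that of H2-DMa in 8 of 11 and 6 of 8, and H2-DMa had -0.11 and -0.08 with limma on FPKM. The classical chains did not pass, with log2 values of 0.52 to 0.69. The ratio of Cd74 to the classical chains was 0.804 to 1.01 over the 6 skin libraries and 1.25 to 1.60 over the 5 SI libraries, so the tissues were separate whatever the treatment.

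The remaining genes of the pathway were described from lists of which the members were selected with these data already seen. The factors that bind the X and Y boxes (Rfx5, Rfxap, Rfxank, Creb1, Nfya, Nfyb and Nfyc) had 0 of 7 called in either tissue, with medians of 0.09 in SI and -0.06 in skin. Rfx5, the DNA-binding subunit of RFX, had 899, 1005 and 1020 normalized counts in control SI and 1021 and 1109 after IMQ. In the SI, Creb1 had a log2 value of -0.14 and Nfyc of -0.09, and in skin they had 0.06 and -0.01.

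Of 9 endosomal processing genes, 4 were higher and 0 lower in the SI, where 2.77% of all genes were called higher. Ctsh, an aminopeptidase-type cathepsin, had 1716, 1441 and 1484 normalized counts in controls and 6180 and 5649 after IMQ, a rise of 1.94 on the log2 scale (SE 0.13, edgeR adjusted p = 0.000417). Ctsl, a cathepsin that cleaves the invariant chain in some epithelia, rose by 1.84 (SE 0.14, edgeR adjusted p = 0.000639). Lgmn, an asparaginyl endopeptidase that initiates cleavage of the invariant chain, rose 2.22-fold in SI (edgeR adjusted p = 0.00468), and Ctss, which completes it in dendritic and B cells, by 0.92 on the log2 scale. In skin Lgmn rose by 1.16 (edgeR adjusted p = 0.0140) and Ctss by 1.01 (edgeR adjusted p = 0.0419), and the other 7 were not called. In the SI these 4 proteases rose in the libraries in which the class II chains were lowest.

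March1, the ubiquitin ligase that removes class II molecules from the surface of dendritic cells and B cells, had 458, 341 and 455 normalized counts in control SI and 2142 and 1382 after IMQ. It rose by 2.08 on the log2 scale (SE 0.23, edgeR adjusted p = 0.00326), and in skin it had a value of 0.71 that did not pass (edgeR adjusted p = 0.208). Its relative March8 was not called (log2 -0.07 in SI, -0.18 in skin). The class II gene H2-Eb2 had 122.6, 75.6 and 167 counts in control SI and 88.1 and 58.8 after IMQ, which overlapped.

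Among 9 co-stimulatory and inhibitory ligands, 7 were tested in SI and 1 was called, Pdcd1lg2 (PD-L2), which rose by 2.02 (SE 0.24, edgeR adjusted p = 0.00423). In skin 0 of 8 were called, with 0.34 for Cd274 and -0.10 for Icosl. The class I presentation genes had 0 of 15 called in both tissues, with medians of -0.29 in SI and 0.05 in skin. B2m had a log2 value of 0.02 and H2-D1 of 0.08 in the SI, so the class I chains in the same libraries were near 0 where the class II chains were lowest. Of the interferon gamma axis, which induces Ciita, 0 of 11 tested genes were called in either tissue. In the SI 7 of the 11 were below 0, with -0.17 for Irf1, 0.01 for Ifngr2, -0.44 for Irf8 and -1.41 for Cxcl9 (edgeR adjusted p = 0.310). Cxcl9, a chemokine induced by interferon gamma, had 444, 345 and 1185 normalized counts in controls and 245 and 252 after IMQ, and both IMQ libraries of Irf8 were also below all controls. In skin Jak1 had 0.37 and Ifngr1 0.78 (edgeR adjusted p = 0.100). Ifng itself had 0 counts in 3 of the 5 SI libraries and was not tested.

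**Figure D4:**
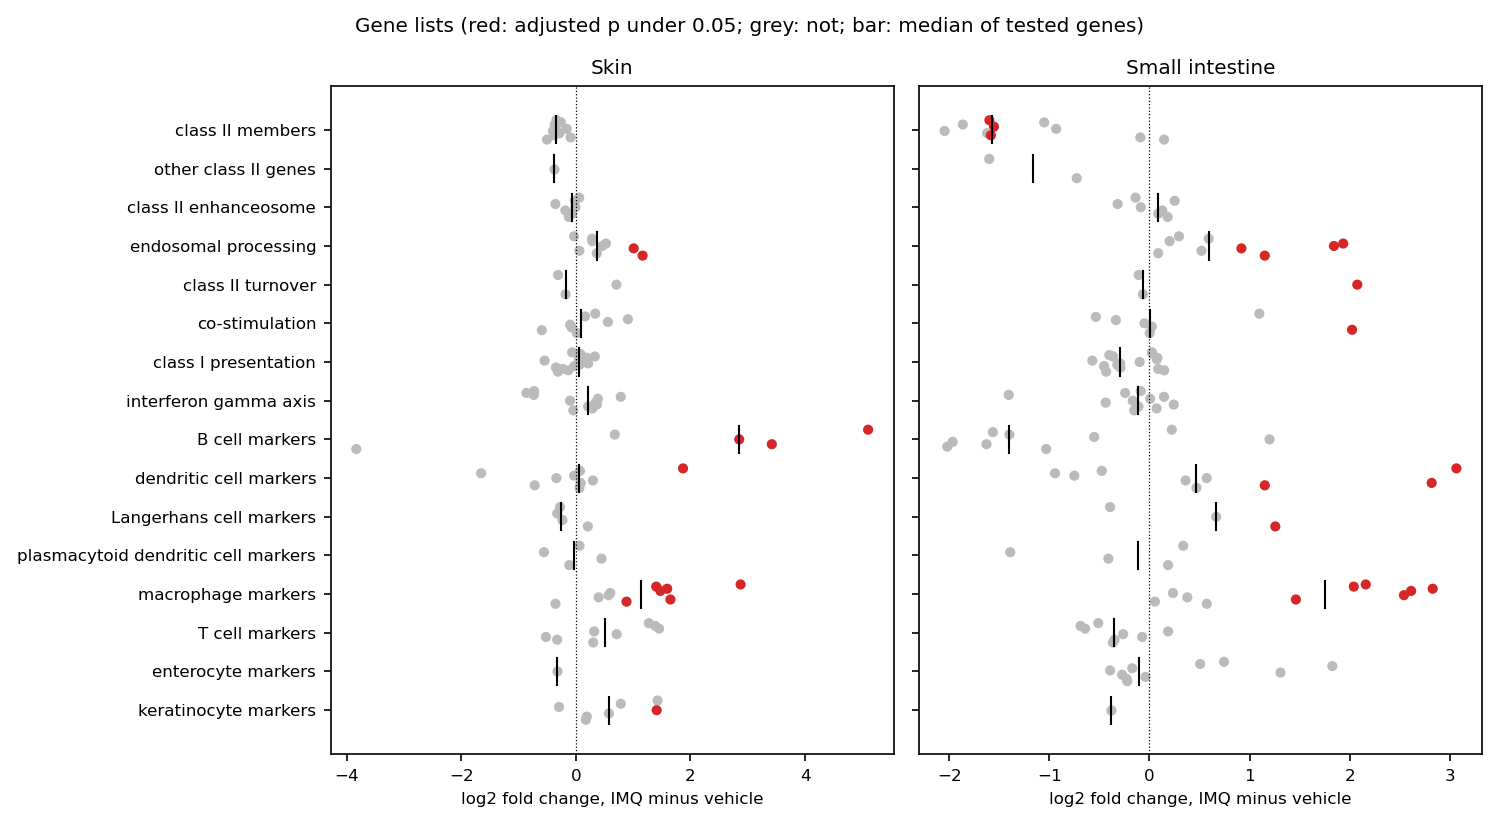
Log2 fold change of IMQ against vehicle (horizontal axes) for every tested gene of each list in skin and SI, where red points have an edgeR adjusted p under 0.05, grey points do not and bars are medians. In the SI the median of the 10 class II genes is -1.57. Those of B cell genes and of the other class II genes are -1.40 and -1.16, while those of endosomal processing and macrophage genes are 0.59 and 1.75.

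Markers of the cell types that carry class II were summed in FPKM beside these results. In the SI 6 of 10 macrophage genes were called higher, against 2.77% of all genes tested. The sum of the 10 was 266 to 363 in controls and 891 to 962 after IMQ. C1qb had 2755, 1557 and 2023 normalized counts in controls and 15054 and 14955 after IMQ, C1qc rose by 2.61, Cd68 by 2.54 and Adgre1 (F4/80) by 2.16 on the log2 scale. Mertk, Csf1r, Cd163 and Lyz2 had 0.57, 0.38, 0.23 and 0.05 in the SI and were not called. In skin 6 of 10 were also called higher, against 4.05% of all genes tested, led by Adgre1 (2.88), Fcgr1 (1.65), C1qb (1.59) and C1qc (1.48). Mertk had -0.36 in skin (edgeR adjusted p = 0.178). Class II transcripts were at their lowest in the SI libraries with the highest sums of macrophage genes.

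Of 9 dendritic cell genes, 3 were called higher in SI, against 2.77% of all genes tested. The sum of the 9 was 14.7 to 16.0 FPKM in controls and 81.8 and 58.7 after IMQ, of which Itgax alone supplied 59.2 and 44.2. Itgax (CD11c), which is shared with macrophages and intraepithelial lymphocytes, had 2040, 1587 and 1570 normalized counts in controls and 13520 and 10921 after IMQ. Batf3 rose by 3.07 and Xcr1, a marker of cross-presenting dendritic cells, rose 2.22-fold (edgeR adjusted p = 0.0457). Flt3 and Zbtb46, which mark conventional dendritic cells, had 0.36 and 0.47 and were not called. Cd209a and Clec10a had -0.94 and -0.75 in SI, with both IMQ libraries below all controls, and did not pass (edgeR adjusted p = 0.282 and 0.353). In skin Batf3 was the one gene called (log2 1.87), and Cd209a had -1.65 with no overlap (edgeR adjusted p = 0.0537). Cd207 (langerin) had 0 counts in every SI library and 1057 to 3182 normalized counts in skin, with the highest value in control replicate 2. Of the Langerhans cell list, Tgfbr1, which is widely expressed, rose by 1.26 in SI, and in skin Tgfbr1 had 0.21 and Epcam -0.33. The plasmacytoid dendritic cell list had 0 of 4 called in both tissues, with 0.34 for Bst2 and 0.19 for Tcf4 in SI, and 0.06 and -0.11 in skin. The other 2, Siglech and Spib, had -1.39 (edgeR adjusted p = 0.253) and -0.41 in SI, and the 3 controls of Siglech, at 308, 410 and 299 normalized counts, were above the IMQ libraries, at 196 and 61.0.

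B cell markers had 0 of 9 called in SI and a sum of 13.3 to 25.5 FPKM in controls and 16.2 and 20.1 after IMQ. Their median log2 value in SI was -1.40, with 7 of the 9 below 0. Cd79a had a log2 value of -0.55 (edgeR adjusted p = 0.490), and Cd79b was 2.30-fold higher without passing (edgeR adjusted p = 0.0765). Without control replicate 9, Cd74, H2-Ab1 and H2-Eb1 had log2 values of -1.35, -1.21 and -1.26 and edgeR adjusted p of 0.0382, 0.0239 and 0.0213. In skin Blk (5.10), Cd79b (3.42) and Cd22 (2.85) rose, while Ms4a1 had 0 to 14.4 normalized counts and Pax5 0 to 7.42.

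T cell markers had 0 of 8 called in both tissues, with a sum of 28.0 to 40.8 FPKM in control SI and 25.9 and 27.4 after IMQ. In the SI 7 of the 8 were below 0, with a median of -0.36. Cd4 had 0.19, Cd8a -0.26 and Cd3e, with both IMQ libraries below all controls, -0.69 (edgeR adjusted p = 0.310), and in skin Cd3g had 1.45 and Cd3e 1.39 (edgeR adjusted p = 0.170 and 0.143). The enterocyte sum was 11888 to 18153 FPKM in control SI and 23527 and 26935 after IMQ, with 0 of 10 genes called. Apoa4 had 1.83 (edgeR adjusted p = 0.222), Fabp1 1.31 and Apoa1 0.51, whereas the median of the 10 was -0.11 and 6 were below 0, Epcam (-0.39) and Fabp2 (-0.27) among them. The keratinocyte gene Krt14 rose by 1.41 in skin, and Krt10 had -0.39 in the SI. The part of macrophage, dendritic, B, T cell and enterocyte content in the class II differences was not tested.

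Over the 11 libraries, with the mean of each tissue subtracted from log2 normalized counts, the other genes of the group with a mean of at least 1 FPKM in both tissues had a Pearson r with H2-Ab1 of 0.937 to 0.995, except H2-Ob at 0.462. Cd74 had 0.988 and Ciita 0.937. Of 12084 genes compared, the 5 outside the group with the highest r were H2-Ea-ps (0.976), Setd3 (0.958), an actin histidine methyltransferase, Mat2b (0.944), a regulatory subunit of methionine adenosyltransferase, Golph3l (0.933), a Golgi protein, and Cops5 (0.932), a subunit of the COP9 signalosome. The points share libraries and treatment groups, and these correlations describe the libraries without a test.

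The SI result depended on the libraries and the model. The number of class II genes called was 8 without control replicate 7, and 0 without control replicate 8, IMQ replicate 10 or IMQ replicate 11, while the log2 values without each library in turn were -1.76 to -1.35 for Cd74, -1.74 to -1.21 for H2-Ab1 and -1.76 to -1.26 for H2-Eb1. DESeq2 called 8, one fit of all libraries 5 and limma on log2(FPKM + 1) 0.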

How the data were processed

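Whole skin and small intestine of BALB/c mice were sequenced in 11 libraries, grouped by tissue and treatment from the sample labels. Reads were trimmed by the authors with Trimmomatic, mapped to mm10 with HISAT2 2.1.0 and assembled with StringTie 2.1.3b, per the paper and the submitters' processing notes. They deposited whole-number read counts per gene without normalization. The FPKM were computed by the authors per transcript length and library size and deposited in the same table, as was the authors' TPM, which was not tested. StringTie gave transcript abundance from a stranded library kit. How its output was turned into whole-number counts, and how strand and reads matching several genes were handled in counting, is not given in the sources used here, so counts of near-identical genes are uncertain.

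In each tissue, genes with at least 1 count in every library were retained and scaled by relative log expression, following the study's filter. Groups were compared with the quasi-likelihood test of edgeR 4.0.16 (R 4.3.3), and p-values were adjusted over all genes tested (Benjamini-Hochberg, threshold 0.05). Alternatives were DESeq2 1.42.0, whose Wald test the study used, limma 3.58.1 fits, TMM and upper-quartile normalization, other filters, and the omission of each library. The interaction and the comparison of control tissues came from one model of 11 libraries. SE is the log2 fold change divided by the square root of F, and 95% intervals use the degrees of freedom of the test. Normalized counts are counts per effective library size, multiplied by the tissue's mean of it. The steps were tested on simulated data. Sequences and positions came from RefSeq and GENCODE (GRCm38), read with Python 3.11.15 and Biopython 1.88.

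The 10 genes and all lists were chosen with earlier results of these data known. Of each list, the called genes with the largest change (at most 4) were named in each tissue, or the 2 with the highest mean count where none was called. The 5 genes most like H2-Ab1 were also named. Mertk, Csf1r, Cd163 and Lyz2 were added after their values were seen. Rfx5, March8 in the SI, Flt3, Zbtb46, Cd207, Ms4a1, Pax5, Ifng, Siglech, Spib, Cd209a, Clec10a, Fabp1, Fabp2, Cxcl9, Irf8, and Cd79a, Cd79b, Epcam and Cd3e in the SI were named after their values were seen. Libraries of 1 group differed by more than sampling noise (chi-square per degree of freedom 34.0 to 231 over 10 pairs). The labels do not say that each library is a separate mouse, so p-values measure the spread between these libraries.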

Additional observations from a re-analysis of the deposited data

Results flagged for a closer look

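By the edgeR interaction term, the change with IMQ differed between SI and skin for 8 of 48 named genes, 0 of them class II. The 48 are the 10 class II genes and those named by rule that were tested in all 11 libraries. Over all 18108 genes tested the share called was 2.55%. The rule took the largest called changes in each tissue, so the 2 shares cannot be compared. The values are the log2 change in SI minus that in skin. The differences were positive for 6 genes. For Itgax it was 2.75 (SE 0.44, edgeR adjusted p = 0.00995), and for Pdcd1lg2 it was 2.11 (SE 0.47, edgeR adjusted p = 0.0439). Cd68 had 1.97 (SE 0.29, edgeR adjusted p = 0.00668) and Tgfbr1 had 1.05 (SE 0.16, edgeR adjusted p = 0.00903). The proteases Ctsh and Ctsl had 1.42 (SE 0.18, edgeR adjusted p = 0.00371) and 1.39 (SE 0.25, edgeR adjusted p = 0.0174). The differences were negative for Blk, at -4.88 (SE 0.86, edgeR adjusted p = 0.0153), and for Cd22, at -4.25 (SE 0.51, edgeR adjusted p = 0.00306). Single libraries far from the others of their group were not tested for, since each group has 2 or 3 libraries.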

How the results depend on the processing

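No paired analysis was possible because it is not given which libraries came from one mouse. The interaction and the comparison of control tissues therefore treated skin and SI libraries as independent. With DESeq2, 3030 genes were called in skin, 1206 in SI and 1281 in the interaction, and 8 class II genes were called in SI. In SI, 5 were called in one fit of all libraries and 0 with limma on log2(FPKM + 1), which called 894 genes in skin. Without a filter on low counts the interaction called 301 genes. Between the control tissues both limma fits of FPKM called 1 class II gene. With each library left out in turn, genes called ranged from 258 to 2521 in skin, 294 to 801 in SI and 144 to 1072 in the interaction, and class II genes called from 0 to 8 in SI, 0 to 1 in the interaction and 1 to 7 between control tissues. In skin, log2 values then ranged from -0.561 to 0.053 for H2-Aa, -0.424 to 0.049 for H2-DMa, -0.38 to 0.12 for H2-Oa and -0.506 to 0.064 for Ciita. In SI, H2-Oa ranged from -0.279 to 0.143 and H2-Ob from -0.121 to 0.765. In the interaction H2-Oa ranged from -0.215 to 0.298, and between control tissues H2-Ob ranged from -0.588 to 0.497. Other reversals were H2-Oa at -0.041 in the interaction with upper-quartile normalization, and H2-DMa at 0.082 and 0.049 there with limma on log2(FPKM + 0.01) and log2(FPKM + 1). Between control tissues, H2-Ob was -0.03 with TMM, -0.095 with upper-quartile normalization, and -0.467 and -0.229 with limma on FPKM (pseudocounts 0.01 and 1), and H2-DMa was -0.11 and -0.079 there. The cause of these changes was not tested, except that a fit with a library left out has fewer samples. The decreases of Cd74, H2-Ab1 and H2-Eb1 in SI kept their direction in the 9 other models or filters and the 5 fits with a library left out.

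Without control replicate 2 of the skin and control replicate 9 of the SI, choices made after seeing the data, the numbers called higher were 5 and 5 of the macrophage genes and 3 and 4 of the endosomal genes. H2-Oa and H2-Ob had low counts and wide intervals, and every SI value rests on 2 IMQ libraries.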
